A study of Homo sapiens with 12 samples.

Results

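The genes described here are 55 cell cycle genes: factors that license and copy DNA, enzymes of nucleotide synthesis, the cyclins and kinases of G1, S phase and mitosis, inhibitors of cyclin-dependent kinases, and proteins of the spindle, the centromere, the spindle checkpoint and the anaphase-promoting complex. They were taken by name, and every probe that the array's gene table pairs with 1 of them and no other gene was used. Of the 55 genes, 52 had such a probe (56 probes in all), and CCND1, CDKN2C and CDKN3 had none. All 52 were tested, among 18106 genes and 53671 probes. Where a gene had several probes, its brightest one on average stood for it.

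The cells were T-HESC, which are stromal cells of the human endometrium made immortal by telomerase, so the groups are cultures of 1 line and not of several donors. After 24 h without serum, cultures were treated for 48 h. The groups were vehicle, 5 ng/ml tumour necrosis factor alpha (TNFα), 1 ng/ml interleukin 1 beta (IL1β), and the combination of the 2 cytokines in the same amounts. Each group had 3 single-colour CodeLink arrays, 12 in all, and replicates 1, 2 and 3 of every group were passages 13, 28 and 15 of the line. The labels do not say whether the passages were also treated on separate days, so a p-value here measures the spread between these cultures.

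A dividing cell licenses its replication origins with the MCM helicase in G1, commits to S phase through E2F transcription factors and cyclin E with CDK2, copies its DNA, and enters mitosis when cyclin B and CDK1 become active. The genes of S phase are transcribed largely under E2F. Those of G2 and mitosis are transcribed later, under FOXM1, B-MYB (MYBL2) and the factor NF-Y, and many carry a cell cycle genes homology region (CHR) near their start. Cultured cells kept without serum tend to leave the cycle, and transcripts of mitotic genes are abundant only in cells in S phase, G2 or M. In RNA from a whole culture, fewer cycling cells and less RNA per cycling cell cannot be told apart.

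The start regions of 4 members are shown because these genes stand for the different patterns below: CCNB2 and CDC20 were among the members with a wide spread over the arrays, MKI67 had a smaller spread, and MCM6 is a replication gene. They were chosen after their values were seen. Each is the 250 bases before the annotated start on the gene's own strand, from RefSeq on GRCh38.p14. CCNB2 lies at chr15:59104896-59105145 on the plus strand, CDC20 at chr1:43358731-43358980 on the plus strand, MKI67 at chr10:128126424-128126673 on the minus strand and MCM6 at chr2:135876444-135876693 on the minus strand. Capitals mark the letters searched for on both strands: the CHR as TTTGAA and also in the form TTCGAA, the NF-Y box as CCAAT, and an E2F core in any of the forms TTCCCGC, or with other middle letters TTGGCGC, or else with the letters TTCGCGC. Overlapping matches run together.
CCNB2: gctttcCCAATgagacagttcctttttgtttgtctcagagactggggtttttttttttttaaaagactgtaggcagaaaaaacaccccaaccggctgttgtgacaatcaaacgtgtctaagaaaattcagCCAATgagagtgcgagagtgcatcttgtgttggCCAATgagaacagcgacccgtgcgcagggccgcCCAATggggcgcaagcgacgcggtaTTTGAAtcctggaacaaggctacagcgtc
CDC20: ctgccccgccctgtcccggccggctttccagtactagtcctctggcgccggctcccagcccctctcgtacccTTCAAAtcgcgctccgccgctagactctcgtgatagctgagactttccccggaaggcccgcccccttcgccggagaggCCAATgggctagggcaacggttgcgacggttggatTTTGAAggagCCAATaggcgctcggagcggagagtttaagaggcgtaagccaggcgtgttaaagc
MKI67: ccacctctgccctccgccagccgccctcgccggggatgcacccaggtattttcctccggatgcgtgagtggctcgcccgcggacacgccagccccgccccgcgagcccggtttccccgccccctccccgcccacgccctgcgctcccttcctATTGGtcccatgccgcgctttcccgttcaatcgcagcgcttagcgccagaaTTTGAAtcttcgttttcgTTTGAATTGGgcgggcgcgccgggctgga
MCM6: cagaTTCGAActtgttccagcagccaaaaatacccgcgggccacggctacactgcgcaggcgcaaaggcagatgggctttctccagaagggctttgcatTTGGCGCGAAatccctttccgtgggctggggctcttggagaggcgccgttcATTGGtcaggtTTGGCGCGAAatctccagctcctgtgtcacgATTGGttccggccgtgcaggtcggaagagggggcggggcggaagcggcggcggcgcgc

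In these 250 bases the CHR letters began 29 bases before the start of CCNB2, and 4 CCAAT boxes lay upstream of them. CDC20 had CHR letters at 65 bases and, on the reverse strand, at 178 bases, with CCAAT boxes at 100 and 55 bases. MKI67 had CHR letters at 47 and 29 bases before its start and CCAAT boxes on the reverse strand at 98 and 24 bases. MCM6 had the only E2F letters among the 4, in 2 places of 2 overlapping matches each (beginning 151, 148, 89 and 86 bases before the start). It also had CHR letters (TTCGAA) at 246 bases and CCAAT boxes on the reverse strand at 100 and 58 bases.

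A promoter of 300 bases (250 before the start and 50 after it) was in the RefSeq table for 44 of the 55 genes, and a gene was counted where any of its listed starts held the letters. CCAAT was present in 34 of the 44 (77.3%), against 39.7% of all 27305 genes in the table. The CHR letters were present in 18 (40.9%, against 19.5%), and an E2F core in 19 (43.2%, against 13.1%). By role, E2F letters stood in 8 of the 9 replication genes and all 3 nucleotide synthesis genes, while CHR letters stood in 1 of the 9 replication genes and 5 of the 9 S/G2/M cyclins and kinases. All 9 of those cyclins and kinases had CCAAT. These are matches of letters only, and none of the deposited data measured binding at them.

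Values are log2 scaled intensities, on which 0 is close to the median probe of an array and 1 unit is 2-fold. Levels of different genes are not compared, because probes differ in brightness. The arrays had 52944 to 53507 probes with a positive value, and their medians lay within 0.05 of each other. Among markers of the labelled cell type, the collagen COL1A1 read 8.02 to 9.87 over the 12 arrays and MME (CD10) 0.24 to 3.08. Of epithelial markers, KRT19 read 3.80 to 6.60, and the defining marker EPCAM read −2.03 to −0.35 on the 11 arrays with a value. Of leukocyte markers, PTPRC read −9.38 to −1.84, CD68 1.32 to 2.62 and CD3E 0.40 to 1.11. Of endothelial markers, PECAM1 read 3.00 to 4.12, TEK 0.81 to 2.81, VWF −1.45 to 0.14, CDH5 −1.44 to −0.27 and KDR −6.70 to −1.83. With no detection calls, these readings do not show which of the markers were absent. VIM, HOXA10, HOXA11 and DES had no single-gene probe, so those stromal markers were not analysed here. On the first principal component of all probes (22.6% of the variance) the passage 15 vehicle array (score 171.1), the passage 15 TNFα array (68.7) and the passage 28 IL1β array (53) stood apart from the other 9, which scored between −84.8 and −18.2. The vehicle group therefore held 1 of the 3 arrays that stood apart, and the main counts against vehicle are also given without those 3 arrays, a setting chosen after seeing the data.

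The spread of the members over the arrays was wide in every group but the one given both cytokines. As a deviation of each gene from its own mean over the 12 arrays, the median of the 52 members was 0.46, 1.20 and −0.20 on the vehicle arrays (passages 13, 28 and 15), 0.27, −0.38 and 0.39 with TNFα, 0.00 (−0.0014), −0.44 and 0.85 with IL1β, and −0.68, −0.69 and −0.40 with both. The vehicle array of passage 28 and the IL1β array of passage 15 were the highest, and the 3 arrays with both cytokines were the lowest except for the IL1β array of passage 28, which lay between them. As mean ± SD over 3 arrays these medians were 0.49 ± 0.70 for vehicle, 0.09 ± 0.42 for TNFα, 0.14 ± 0.66 for IL1β and −0.59 ± 0.17 for both. The same median over all probes lay between −0.06 and 0.18 on every array.

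Gene by gene, the passage 28 vehicle array was the highest of the 12 for 30 of the 51 members with a value on every array, and for 6.97% of all probes. The passage 15 IL1β array was the highest for another 7 members (3.64% of all probes). The passage 28 array with both cytokines was the lowest for 19 members (5.57%) and the passage 13 array with both for 7 (4.97%). The passage 15 array with both was the lowest for 1 (5.83%). The passage 15 vehicle array was the lowest for 7 (17.6%) and the passage 28 IL1β array for 6 (12.7%). The median range of a member over the 12 arrays was 2.32, against 1.67 for all probes. For 34 members it was above 2, and for 8 it was below 1.

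**Figure D1:**
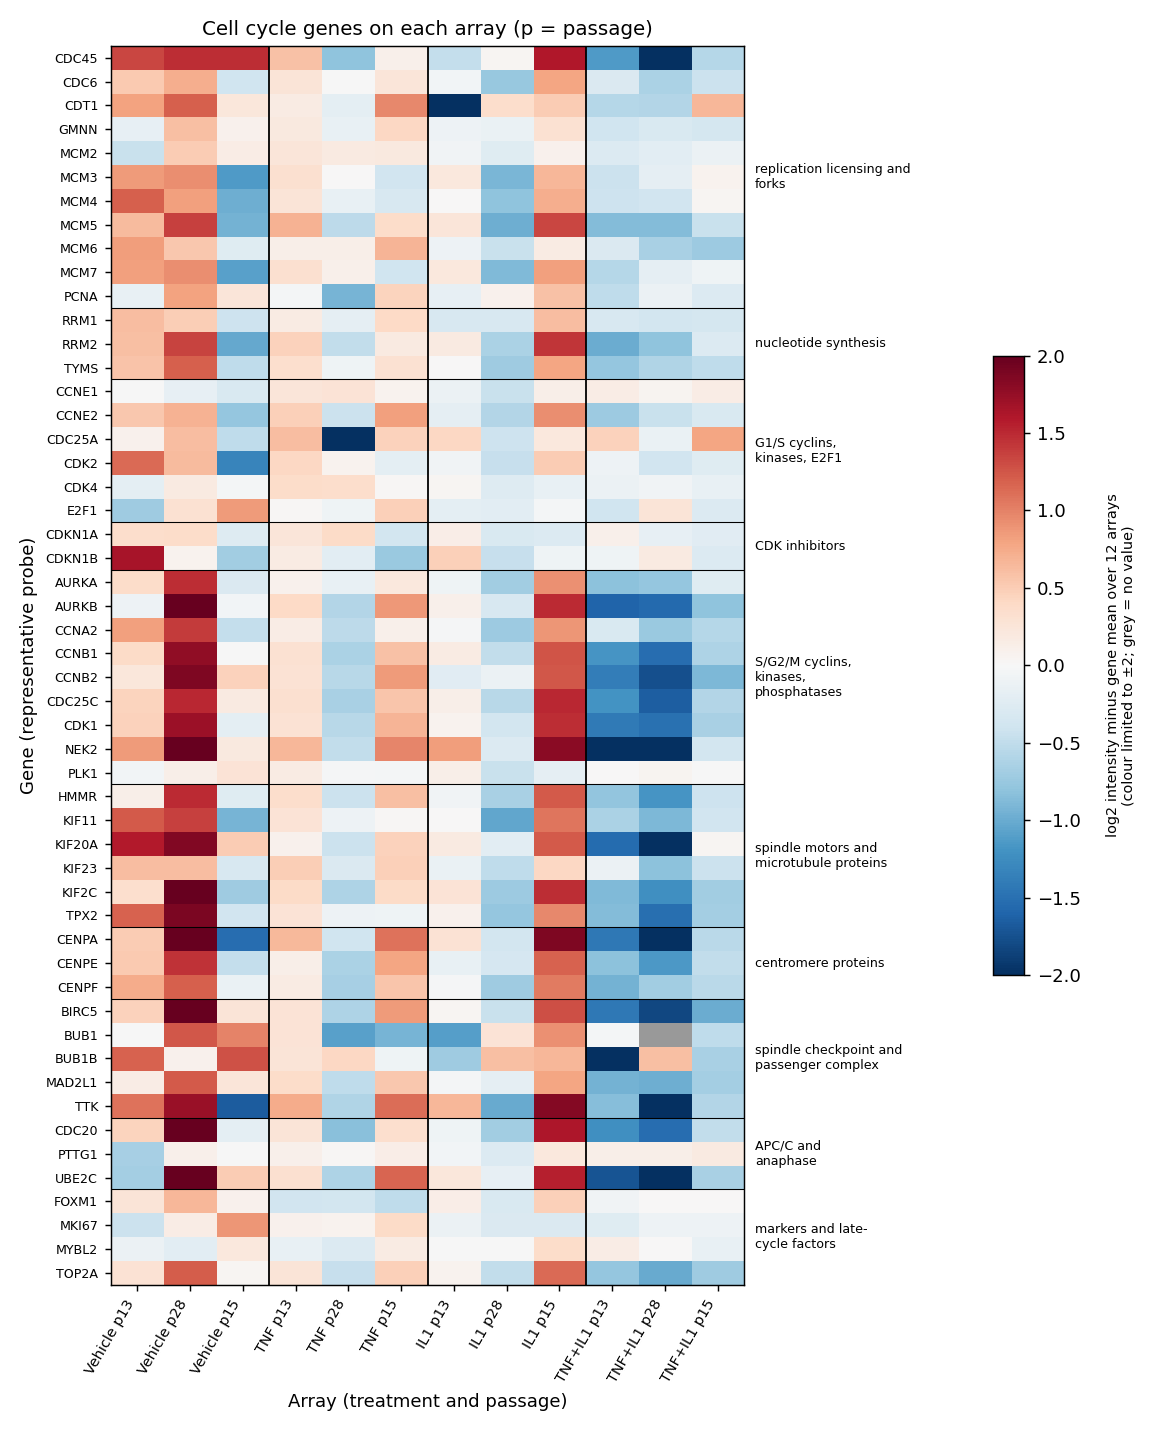
Heat map of the 52 members (rows, grouped by role) on the 12 arrays (columns, by treatment and passage), as log2 intensity minus the gene's mean over the arrays; grey marks the missing BUB1 value. Most mitotic rows are darkest red on the passage 28 vehicle and passage 15 IL1β arrays and blue on the 3 arrays with both cytokines, while the rows of CCNE1, CDK4, CDKN1A, PLK1 and MYBL2 stay pale.

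The widest members were mitotic or replication genes. NEK2, a kinase of centrosome separation, ranged over 5.73 log2 units, KIF20A, a kinesin of cytokinesis, over 5.61, CDC45, a part of the replicative helicase, over 5.24, BUB1B, a checkpoint kinase, over 4.91, and CDT1, a licensing factor, over 4.75. BUB1B, CDT1 and CDC45 were dim (12th to 23rd percentile of the probe means), and single low values made much of their range: BUB1B read −6.81 on 1 array with both cytokines and CDT1 −6.15 on 1 IL1β array. At the other end, MYBL2 and CDK4 ranged over 0.64, PLK1 over 0.71, CCNE1 over 0.72 and the inhibitor CDKN1A (p21) over 0.75. MYBL2 is a late-cycle transcription factor and PLK1 a mitotic kinase. A second, dim PLK1 probe ranged over 6.47, so the narrow range of PLK1 holds for its brighter probe.

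Arrays of the same passage were not at 1 level under the different treatments. The mean of the members' array medians was 0.01 ± 0.50 for passage 13 (SD, n = 4 arrays), −0.08 ± 0.86 for passage 28 and 0.16 ± 0.57 for passage 15. In a limma fit of passage across all 12 arrays, 0 of the 52 members were called at an adjusted p under 0.05 and 0 had an unadjusted p under 0.05, and the share of all probes called was 0 (3.61% at the unadjusted threshold). Under vehicle, passage 28 was highest and passage 15 lowest. Under TNFα, IL1β and both cytokines the order was the reverse, with passage 15 highest and passage 28 lowest. With both cytokines, passages 28 and 13 were close (−0.69 and −0.68).

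**Figure D2:**
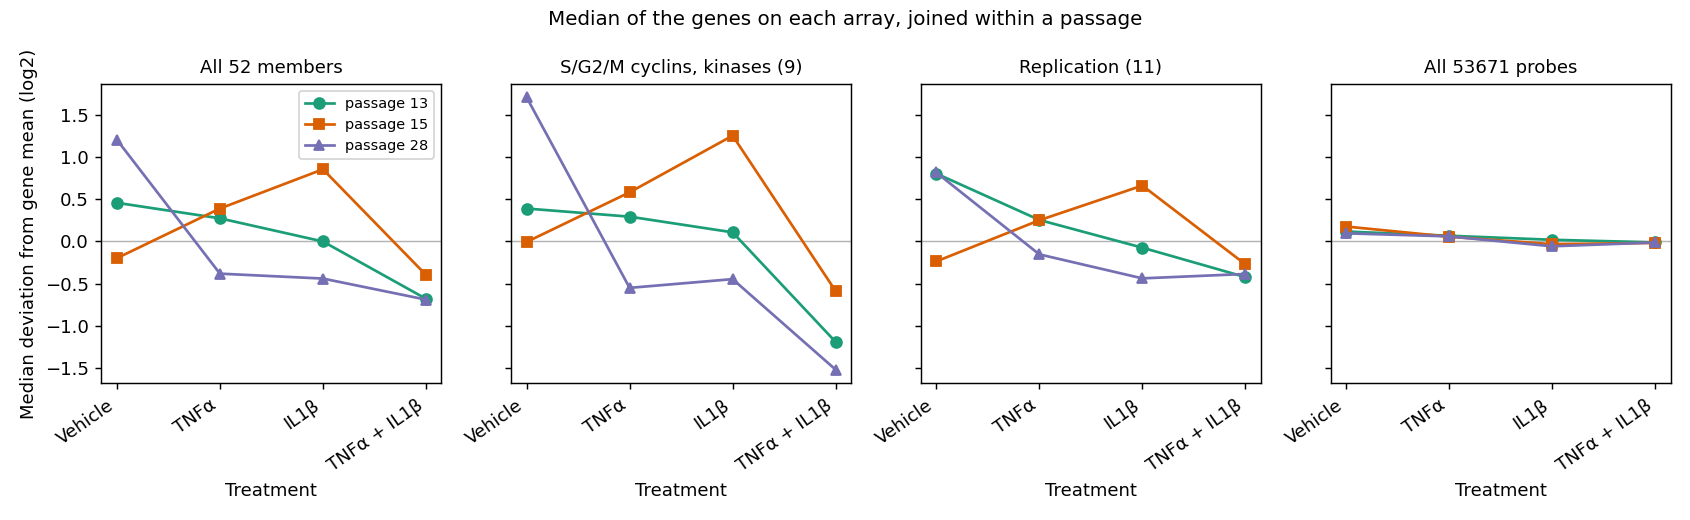
Median deviation from the gene means (log2, vertical axis) on each array by treatment (horizontal axis), with arrays of 1 passage joined by a line, for all 52 members, the S/G2/M cyclins and kinases, the replication genes and all 53671 probes. For the S/G2/M group the passage 28 line runs from 1.70 under vehicle to −1.52 with both cytokines, while the line for all probes stays near 0.

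Both cytokines together were then compared with vehicle, the comparison in which the members lay furthest from 0. The median difference of the 52 members was −1.03 on the log2 scale, against −0.13 over all probes tested, and 48 of the 52 means were below vehicle (60.9% of all probes; 47 and 58.7% without the 3 arrays that stood apart). No member was called by limma at an adjusted p under 0.05, where 0.248% of all probes were (32 probes lower and 101 higher). At an unadjusted p under 0.05, 22 members were lower and 0 higher, against 8.68% and 4.2% of all probes. The 3 arrays with both cytokines all lay below the 3 vehicle arrays for 21 members (14.8% of all probes) and above them for 2 (7.02%). Without the 3 arrays that stood apart the median was −1.52, 37 members passed the unadjusted threshold (23% of all probes in either direction), 39 did not overlap (28.2% of all probes), and the lowest adjusted p was 0.065.

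The 9 measured cyclins, kinases and phosphatases of S phase, G2 and mitosis had a median difference of −1.84 and were all below 0, and the 3 anaphase genes, taken up further on, had a median of −1.95. CCNB2, which encodes cyclin B2, read 2.13, 3.76 and 2.35 on the vehicle arrays (passages 13, 28 and 15), 2.18, 1.33 and 2.74 with TNFα, 1.66, 1.78 and 3.13 with IL1β, and 0.51, 0.14 and 1.00 with both. All 3 arrays with both cytokines lay below all 9 others. The difference from vehicle was −2.20 ± 0.55 (SE, limma, n = 3 per group; adjusted p = 0.164).

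CDK1, the kinase that drives mitosis, read 2.11, 3.36 and 1.46 with vehicle, 1.94, 1.11 and 2.33 with TNFα, 1.72, 1.30 and 3.13 with IL1β, and 0.25, 0.16 and 1.01 with both. Again the arrays with both cytokines were the lowest 3 of the 12. The difference from vehicle was −1.84 ± 0.59 (limma adjusted p = 0.242).

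NEK2 read 0.89, 2.24 and 0.24 with vehicle, 0.71, −0.44 and 1.03 with TNFα, 0.88, −0.22 and 1.85 with IL1β, and −3.49, −2.77 and −0.32 with both. The passage 15 array with both lay close to the passage 28 arrays with a single cytokine, and the other 2 far below every array. NEK2 had the largest difference of all members, −3.32 ± 0.86 (adjusted p = 0.174).

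CCNB1 (cyclin B1) differed by −1.82 ± 0.56 (adjusted p = 0.23) and AURKB, the kinase of the chromosomal passenger complex, by −1.98 ± 0.67 (adjusted p = 0.265). CDC25C, the phosphatase that activates CDK1, differed by −1.85 ± 0.57 (adjusted p = 0.228). AURKA, the kinase of the spindle poles, differed by −1.13 ± 0.48, and CCNA2 (cyclin A2) by −1.12 ± 0.50. These 8 of the 9 genes of this role had unadjusted p-values under 0.05. PLK1 was the exception: it read 4.26, 4.43 and 4.57 with vehicle and 4.31, 4.37 and 4.30 with both, a difference of −0.09 ± 0.19. Second probes of these 2 kinases gave other values. The second AURKB probe read 0.41 to 1.13 over the 12 arrays and differed by 0.21 ± 0.21, and a second, dim PLK1 probe differed by −2.07 ± 1.29 (adjusted p = 0.537).

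Genes of the spindle, centromere and checkpoint followed with medians of −1.36 (6 genes), −1.32 (3) and −1.68 (5). KIF20A read 0.36, 0.63 and −0.71 with vehicle and −2.76, −4.97 and −1.19 with both, so the groups did not overlap, and differed by −3.07 ± 0.81 (adjusted p = 0.182). TPX2, which activates AURKA on spindle microtubules, read 2.50, 3.20 and 0.94 with vehicle and 0.45, −0.19 and 0.64 with both. It differed by −1.91 ± 0.57 (adjusted p = 0.223), and with the first component score as a covariate it was the 1 member called (adjusted p = 0.0399). The other spindle genes were KIF2C, a microtubule depolymerase (−1.47 ± 0.69), HMMR, a microtubule-binding protein (−1.24 ± 0.55), KIF11, the kinesin that separates the spindle poles (−1.19 ± 0.63), and KIF23, a kinesin of the midzone (−0.76 ± 0.36).

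BIRC5 (survivin), of the passenger complex, read 3.43, 5.10 and 3.24 with vehicle, 3.25, 2.35 and 3.82 with TNFα, 3.01, 2.53 and 4.27 with IL1β, and 1.55, 1.16 and 1.99 with both. The 3 arrays with both cytokines were below all others, and the difference from vehicle was −2.36 ± 0.60 (adjusted p = 0.169). CENPF, a kinetochore protein, differed by −1.32 ± 0.49 (adjusted p = 0.297). CENPE, the kinesin of the kinetochore, differed by −1.32 ± 0.56, and CENPA, the histone H3 variant of the centromere, by −1.81 ± 0.91. In the checkpoint, MAD2L1, which inhibits CDC20, differed by −1.41 ± 0.39 (adjusted p = 0.191) and the kinase TTK by −1.68 ± 0.98. CENPA and TTK were higher with both cytokines than with vehicle in passage 15, by 0.99 and 1.08, and lower in the other 2 passages. BUB1B differed by −2.07 ± 0.89 (adjusted p = 0.364), and its passage 28 array with both cytokines, at −2.59, lay within the vehicle arrays (−3.10 to −1.90). BUB1, a kinase of the same checkpoint, had no value on that array, and its difference of −1.01 ± 0.64 rests on 2 arrays with both cytokines.

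The anaphase genes disagreed with each other. CDC20, the activator of the anaphase-promoting complex, read 1.10, 3.04 and 0.46 with vehicle, 0.92, −0.18 and 1.00 with TNFα, 0.57, −0.04 and 2.27 with IL1β, and −0.57, −0.86 and 0.17 with both. The groups given vehicle and both did not overlap, and the difference was −1.95 ± 0.74 (adjusted p = 0.308). UBE2C, the ubiquitin-conjugating enzyme of that complex, differed by −2.19 ± 0.77 (adjusted p = 0.276). PTTG1 (securin), the inhibitor that the complex destroys, read 1.42, 2.18 and 2.08 with vehicle and 2.21, 2.20 and 2.26 with both, a difference of 0.33 ± 0.22 (adjusted p = 0.575).

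Replication genes had a smaller median, −0.60 over 11 genes, all below 0. CDC45 read −1.42, −1.27 and −1.27 with vehicle, −2.17, −3.55 and −2.65 with TNFα, −3.22, −2.71 and −1.15 with IL1β, and −3.88, −6.39 and −3.33 with both. Its vehicle arrays were close to each other, all 3 arrays with both cytokines lay below them, and its adjusted p of 0.152 was the lowest of the members (−3.22 ± 0.77). MCM6, of the MCM helicase, read 2.88, 2.58 and 1.81 with vehicle and 1.76, 1.41 and 1.32 with both, without overlap (−0.93 ± 0.30, adjusted p = 0.253). These were the only replication genes of the 11 with an unadjusted p under 0.05. CDC6 and CDT1, which load the helicase, differed by −0.73 ± 0.39 and −0.91 ± 0.93, and GMNN (geminin), the inhibitor of CDT1, by −0.52 ± 0.24.

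MCM2 read 4.12, 5.08 and 4.72 with vehicle and 4.29, 4.36 and 4.45 with both, where the vehicle arrays enclosed the others (−0.27 ± 0.23, adjusted p = 0.662). PCNA, the sliding clamp of DNA polymerase, read 0.52, 1.47 and 0.92 with vehicle and 0.17, 0.56 and 0.40 with both (−0.60 ± 0.37, adjusted p = 0.538). MCM3, MCM4, MCM5 and MCM7, the other helicase subunits measured, were lower on the passage 15 vehicle array than on the other vehicle arrays by over 1.5 log2 units (MCM7 read 4.95, 5.05 and 3.03), and that array is 1 of the 3 that stood apart. Their differences from vehicle ran from −1.08 to −0.39. Among nucleotide synthesis genes, TYMS (thymidylate synthase) differed by −1.05 ± 0.45 (adjusted p = 0.364) and RRM2 and RRM1, the subunits of ribonucleotide reductase, by −0.999 ± 0.64 and −0.58 ± 0.33. A second, dim RRM2 probe averaged −1.62 on the 2 vehicle arrays with a value and −3.04 with both.

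The 6 measured G1/S genes had a median difference of −0.19, between −0.64 and 0.30, and 0 of them had an unadjusted p under 0.05. CCNE1 (cyclin E1) read 1.69, 1.53 and 1.40 with vehicle and 1.84, 1.75 and 1.84 with both, so that it was 1 of the 2 members without overlap in the higher direction (0.27 ± 0.19, adjusted p = 0.582). E2F1 differed by −0.29 ± 0.36 (adjusted p = 0.786) and CDK4 by −0.09 ± 0.18. A second CDK4 probe averaged 6.42 with vehicle and 6.13 with both. CCNE2 (cyclin E2) differed by −0.64 ± 0.50, its kinase CDK2 by −0.39 ± 0.53, and CDC25A, a phosphatase that activates CDK2, by 0.30 ± 0.74. CDKN1A read 8.62, 8.62 and 8.01 with vehicle, 8.50, 8.64 and 7.90 with TNFα, 8.39, 7.95 and 7.99 with IL1β, and 8.36, 8.09 and 8.04 with both. The 4 groups overlapped, and the difference of both from vehicle was −0.25 ± 0.26 (adjusted p = 0.729), which turned to 0.0473 under quantile normalization. CDKN1B (p27) read 1.65, 0.07 and −0.70 on the vehicle arrays, a spread larger than its difference of −0.40 ± 0.52.

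The proliferation markers differed among themselves. TOP2A, the topoisomerase that separates chromosomes, read 0.83, 1.76 and 0.58 with vehicle and −0.23, −0.47 and −0.17 with both, without overlap (−1.34 ± 0.44, adjusted p = 0.254). MKI67, which encodes the Ki-67 antigen, read 3.92, 4.50 and 5.22 with vehicle, 4.44, 4.42 and 4.74 with TNFα, 4.22, 4.06 and 4.05 with IL1β, and 4.11, 4.24 and 4.24 with both. Its highest vehicle array was passage 15, where most mitotic members were not high, and its difference was −0.35 ± 0.29 (adjusted p = 0.641). FOXM1 and MYBL2 differed by −0.35 ± 0.23 (adjusted p = 0.551) and 0.04 ± 0.20.

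**Figure D3:**
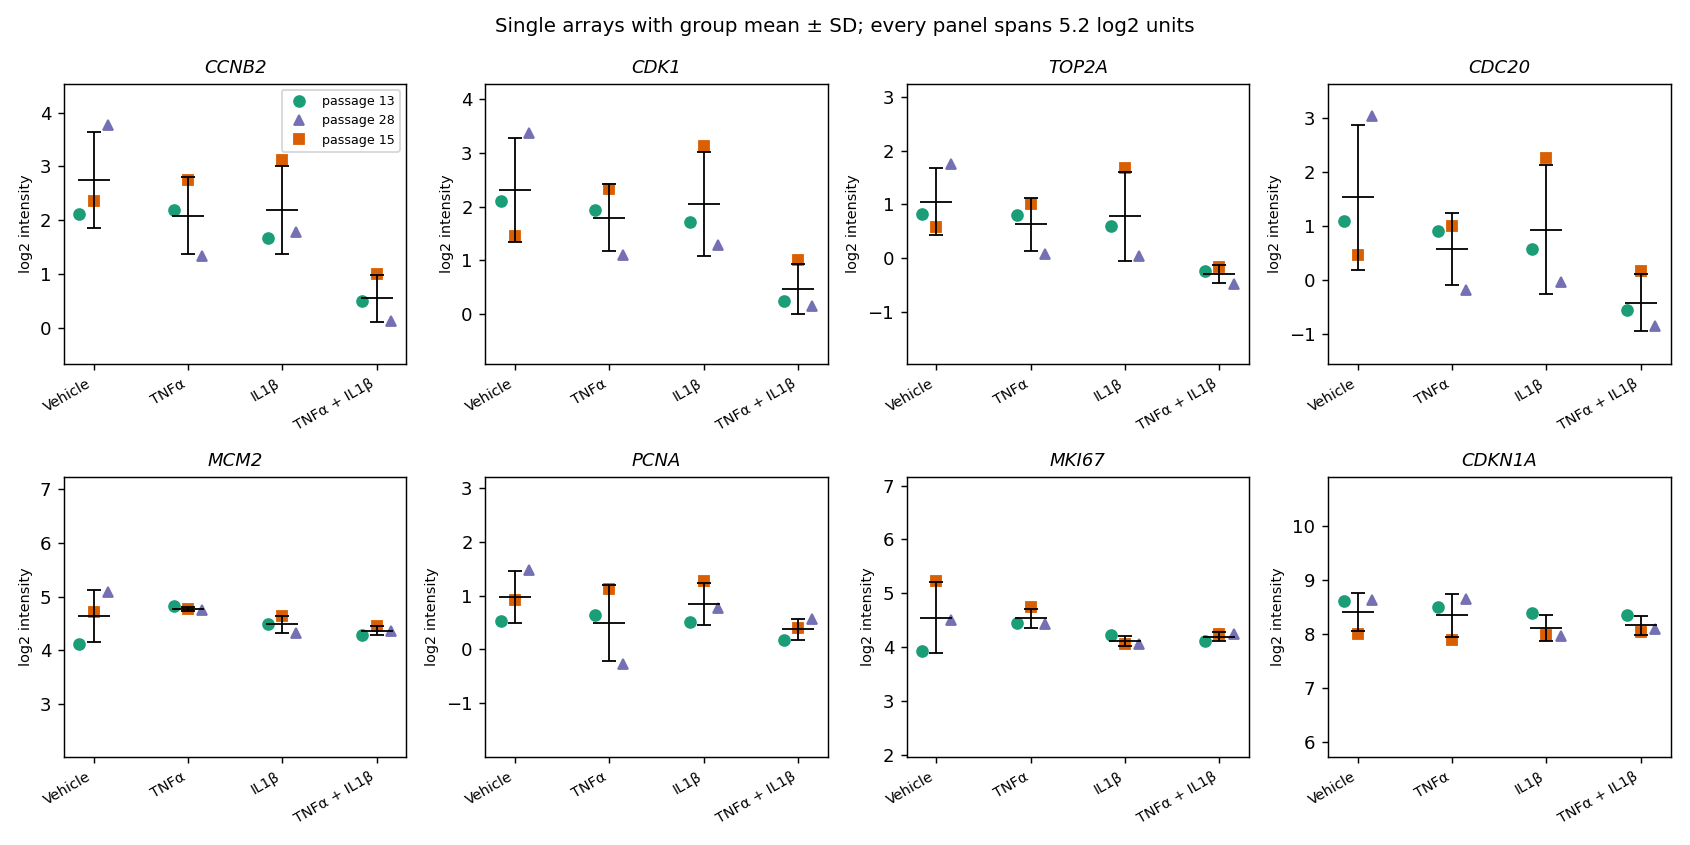
Log2 intensity on each array by treatment for 8 members, with points coloured by passage and bars for the group mean ± SD (n = 3); every panel spans 5.2 log2 units. In the upper row (CCNB2, CDK1, TOP2A, CDC20) the arrays with both cytokines lie below the vehicle arrays, and in the lower row (MCM2, PCNA, MKI67, CDKN1A) at least 1 vehicle array lies within or below them.

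Single arrays carried much of these numbers. Within passages the median difference of the members between both cytokines and vehicle was −1.25 in passage 13, −1.79 in passage 28 and −0.14 in passage 15, and 25 of the 52 members were lower in every passage (20.7% of all probes). In passages 13 and 28 alone, whose arrays of these 2 groups did not stand apart, 40 were lower in both (37.2%). In passage 15 the S/G2/M cyclins and kinases differed by a median of −0.56 and the replication genes by −0.02. Leaving out 1 array or passage, the count of members at an unadjusted p under 0.05 ran from 5 to 35 in place of 22. Beside each count stands the share of all probes under that threshold in the same fit, in either direction. The count was 5 without passage 13 (9.2%), 9 without passage 28 (9.18%), 12 without the passage 28 vehicle array (13.4%), 35 without the passage 15 vehicle array (17.5%) and 35 without passage 15 (11.9%). Without the passage 13 vehicle array it was 19 (15.9%), and with array weights it was 1 (5.76%). The median ran from −1.63 (without passage 15) to −0.51 (without passage 28) and was below 0 in each.

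Genes of the same processes outside the 52, listed by function, were counted in the same contrast. Of 45 other mitosis genes, 0 were called and 21 had an unadjusted p under 0.05, all lower, with a median of −0.98. Of all probes, 8.68% were lower at that threshold, the share to set beside each count of this fit. PBK, a mitotic kinase, had the lowest p of these (−1.78 ± 0.45, adjusted p = 0.167). Of 34 other S phase genes, 0 were called, 10 were lower at the unadjusted threshold, all 34 means were below 0 and the median was −0.54. Of 18 further G1 regulators 1 was lower at that threshold (median −0.33), and of 14 targets of p53 also 1 (median −0.19). Both counts lay near the share of all probes. The p53 target was DDB2, a DNA damage recognition factor, at −0.53 ± 0.17 (adjusted p = 0.247). Without the 3 arrays that stood apart, 26 of 44 mitosis genes and 20 of 34 S phase genes were lower at that threshold (14.8% of all probes), as were 3 of 17 G1 regulators and 5 of 14 targets of p53, and 0 were called.

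**Figure D4:**
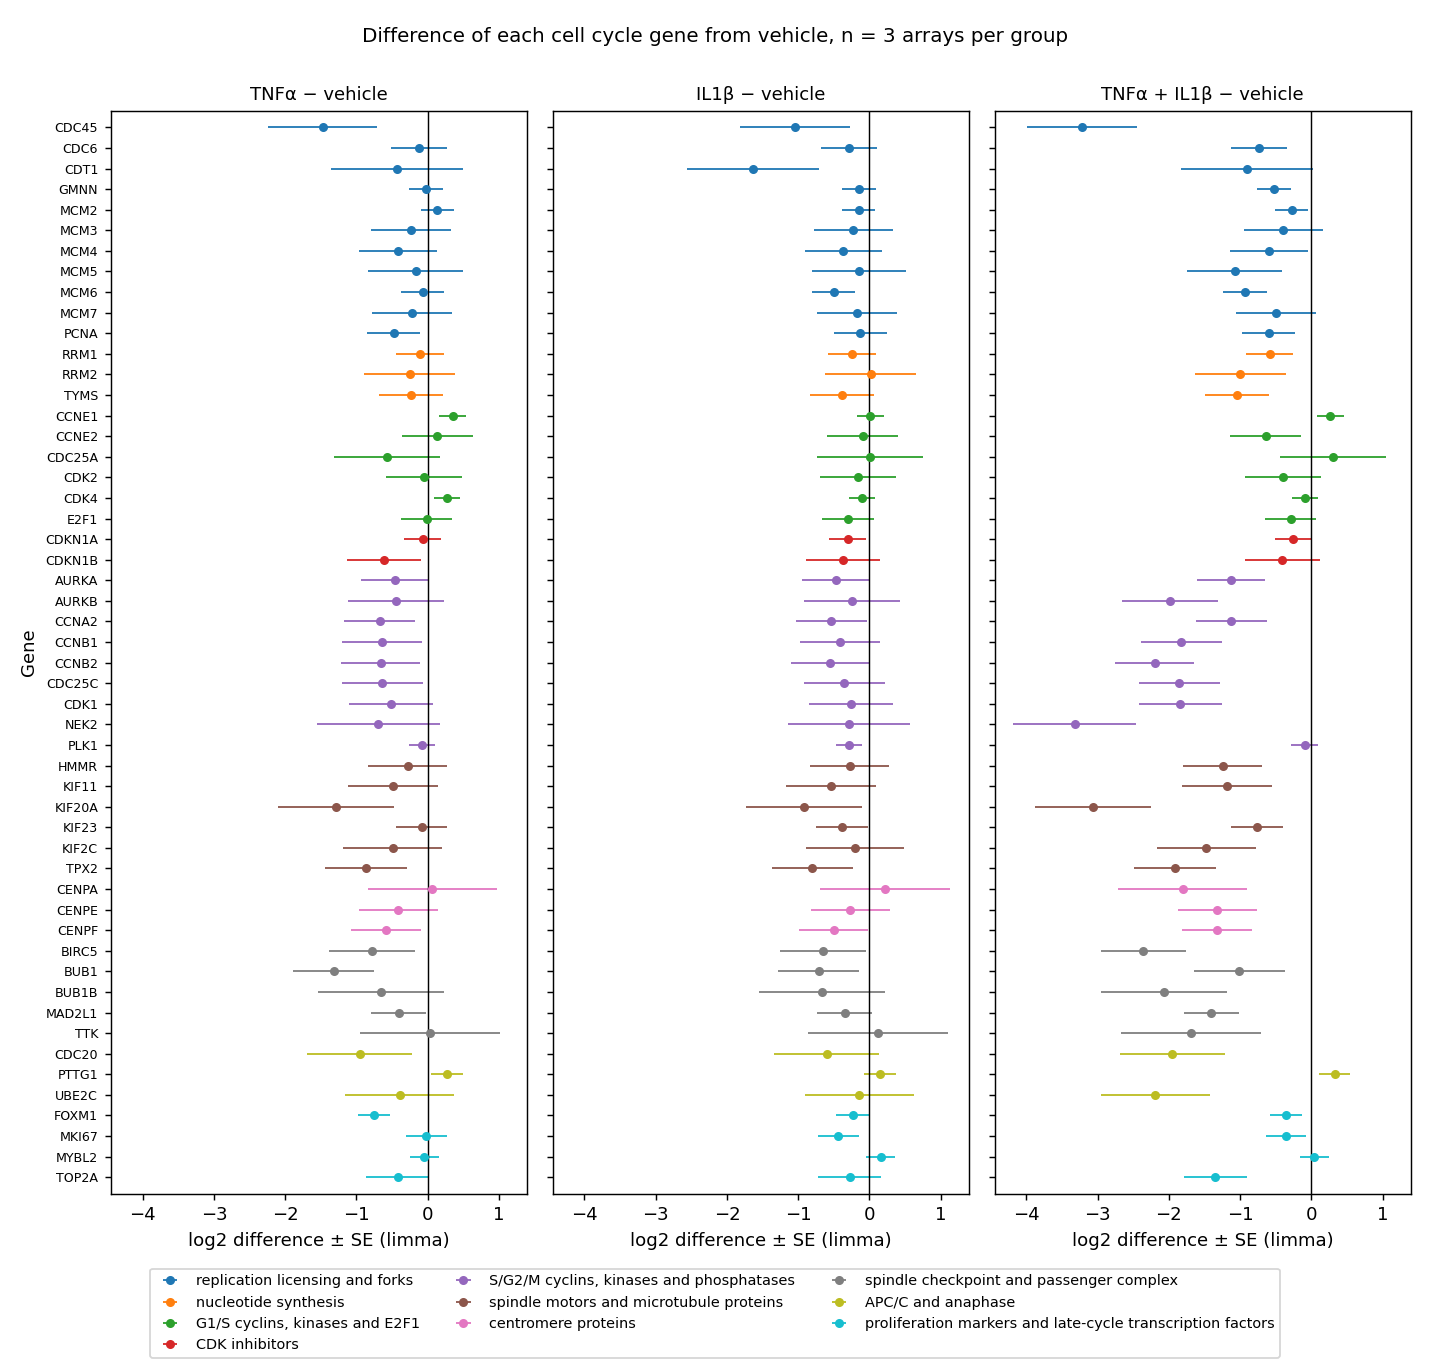
Difference from vehicle (log2, horizontal axis) with its standard error from limma for each of the 52 members (rows, coloured by role), for TNFα, IL1β and both cytokines (n = 3 arrays per group). With both cytokines the cyclins and kinases of mitosis, the spindle, centromere and checkpoint genes lie between −3.32 and −0.76 except for PLK1 (−0.09), PTTG1 lies at 0.33, and the G1/S genes lie between −0.64 and 0.30.

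TNFα alone gave no call among the members (0.0466% of all probes), and 2 members had an unadjusted p under 0.05, against 7.05% of all probes. The median difference was −0.41, against −0.05 over all probes. FOXM1 had the lowest p: it read 1.14, 1.54 and 0.96 with vehicle and 0.49, 0.52 and 0.37 with TNFα, so the groups did not overlap, and on IL1β arrays it read 1.00, 0.57 and 1.36. Its difference with TNFα was −0.75 ± 0.23 (limma adjusted p = 0.501). BUB1 was the other (−1.32 ± 0.57, adjusted p = 0.702), and CDC45, KIF20A and CDC20 differed by −1.47 ± 0.77, −1.28 ± 0.81 and −0.96 ± 0.74.

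The sign of the TNFα median was not that of every passage. It was −0.13 in passage 13, −1.65 in passage 28 and 0.59 in passage 15, and without the passage 28 vehicle array the pooled median was 0.01. Of the 52 members, 5 were lower in every passage (15.2% of all probes), and in passages 13 and 28 alone 31 were lower in both (30.4%). The TNFα arrays all lay below the vehicle arrays for 3 members (6.88% of all probes), and without the 3 arrays that stood apart for 29 (24%). They all lay above the vehicle arrays for 1 (3.72%), CCNE1, which read 1.94, 1.97 and 1.77 with TNFα. In that setting 9 members passed the unadjusted threshold (11.7% of all probes) and the median was −0.90. Without passage 15 the count was 12 (7.27%), and without the passage 15 vehicle array it was 7 (13.7%).

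IL1β alone gave no call (0.00559% of all probes), and 0 members had an unadjusted p under 0.05, against 9.67% of all probes. The median difference was −0.29, against −0.13 over all probes, and no member's IL1β arrays lay all below its vehicle arrays (9.96% of all probes). Of the 52 means, 45 were below vehicle (62% of all probes), and 25 were without the passage 28 vehicle array (60.6%). CDT1 had the lowest p, at −1.63 ± 0.93 (adjusted p = 0.602), with IL1β arrays at −6.15, −2.25 and −2.09 and vehicle arrays at −1.80, −1.40 and −2.38, so that 1 array set the difference. Without that passage 13 array it was −0.31. Within passages the median of the members was −0.42, −1.66 and 1.07 (passages 13, 28 and 15), and it was 0.01 without the passage 28 vehicle array and 0.28 without passage 28. Without passage 15 the median was −1.15 and 21 members passed the unadjusted threshold (11.7% of all probes), and without the passage 15 vehicle array 6 did (14.9%). Without the 3 arrays that stood apart the median was −0.31, 3 members passed it (14.4%), and 11 members had all IL1β arrays below the vehicle arrays (28%).

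Both cytokines were also set against each single cytokine, comparisons that do not use the vehicle arrays for their means. Against TNFα, no member was called (0.00186% of all probes), 9 were lower at an unadjusted p under 0.05 (3.15%), and the median was −0.72, against −0.06 over all probes. Within passages 13, 28 and 15 the median was −0.91, −0.46 and −0.70, and 37 of the 52 members were lower in every passage (21.7%). Against IL1β, no member was called (0% of all probes), 13 were lower at the unadjusted threshold (2.38%), and the median was −0.62, against 0.02. Its values within passages were −0.65, −0.07 and −1.27. Single arrays set these counts too. The 9 members became 1 without passage 13 (4.2% of all probes in either direction), 2 without the passage 15 TNFα array (4.45%) and 5 without the 3 arrays that stood apart (8.58%). They became 14 without the passage 28 TNFα array (4.48%) and 15 with a trended robust variance (4.83%). With array weights they became 24 (23 lower, 18.2%), and with the compared groups alone 25 (24 lower, 10.2%). The 13 members became 1 without the passage 15 IL1β array (3.56%), 2 without passage 13 (5.45%) and 29 without the 3 arrays that stood apart (5.16%). They became 22 without the passage 28 IL1β array (3.34%) and 31 with array weights (13.7%). These comparisons share the arrays with both cytokines, and they are not independent of each other. NEK2 had the lowest p in both, at −2.63 ± 0.86 against TNFα (adjusted p = 0.951) and −3.03 ± 0.86 against IL1β (adjusted p = 0.924).

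Whether the 2 cytokines together differed from the sum of their single differences was tested as an interaction. No member was called and 0 had an unadjusted p under 0.05, against 0% and 3.59% of all probes. Without passage 28 the unadjusted count was 15 (3.87%), without the passage 28 vehicle array it was 4 (4.79%), and without the 3 arrays that stood apart it was 0 (5.03%). For 7 of 51 members the 3 arrays with both cytokines were the 3 lowest of all 12, against 1.47% of all probes.

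Markers of other cell types moved in part with the treatment. Of 8 epithelial markers measured, 1 was called lower with both cytokines than with vehicle, against 0.0596% of all probes. It was KRT18, a keratin, at −1.58 ± 0.26 (limma adjusted p = 0.0447). Without the 3 arrays that stood apart, 0 of the 8 were called. Their summed level (log2 of the summed intensities) was 6.46 to 6.93 on vehicle arrays, 5.91 to 6.75 with TNFα, 4.75 to 6.03 with IL1β and 5.31 to 5.37 with both. The summed level of 6 leukocyte markers was 2.37 to 3.02 with vehicle and 3.01 to 3.14 with both, and 0 of them were called. Of these, ITGAM had the lowest p (−1.95 ± 0.44, limma adjusted p = 0.129), and 4 of the 6 means were above vehicle. The summed level of 5 endothelial markers was 4.02 to 4.38 with vehicle and 3.95 to 4.06 with both, and 0 were called. That of 7 stromal markers was 9.25 to 10.90 with vehicle and 9.99 to 10.08 with both, and 0 were called. The part of these markers in the differences of the cell cycle genes was not tested.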

How the data were processed

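Per the labels, 1 biotin-labelled cRNA per culture, stained with a single dye, was hybridised to each CodeLink array. The deposited values are linear intensities in the authors' series table. How the images were read, corrected for background and normalized is not given in the sources used here. Scaling by the authors of each array to its median was inferred from the array medians of the deposited intensities (1.007 to 1.01). The code −9999 (0.716% of values) was read as missing, and values at or below 0 (1.1%) were set to missing. There were no detection calls.

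Symbols came from the array's gene table through Entrez identifiers. Probes were tested if each group had 2 or more arrays with a value (53671 of 54359). The log2 values were not scaled further. Group means were fitted in 1 model of the 12 arrays (limma 3.58.1, R 4.3.3, two-sided moderated tests, Benjamini-Hochberg adjustment over all probes, calls at an adjusted p under 0.05), and the fit was tested on simulated data. With groups of 3, the smallest two-sided p of an exact permutation test is 0.1. The number of arrays limits the precision.

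The members, lists and tests were chosen with earlier results of these data known. Genes named were drawn, per comparison, from any called member, the 8 largest differences, the lowest p of each role and 9 members listed by name (CCND1, also listed, had no probe). To these were added the 5 widest and 5 narrowest ranges over the arrays and the called or lowest-p gene of each other list. Not every gene under these rules is given. Few or none are given for the single cytokines, the comparisons against them and the interaction. Other members are named to complete a role, after their values were seen.

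The replicate numbers pair the arrays, because the labels give each number 1 passage. In residuals from the group means over all probes, 18 pairs of the same passage correlated at a mean of 0.007 (−0.20 to 0.31). The 36 other pairs had a mean of −0.003. Over the members alone, every same-passage pair among the cytokine groups was positive (0.14 to 0.60). The other pairs among those groups ran from −0.49 to 0.19. The replicate 1 vehicle array was also positive with its passage (0.07 to 0.29). Those of replicates 2 and 3 were negative with theirs (−0.67 to −0.46 and −0.60 to −0.03). These correlations were not tested. The main fit had no passage block. Alternatives tried were an offset of 0.1 before the log, centring on the median, quantile normalization, dim probes removed, probes with all 12 values, 1 probe per gene, the mean of a gene's probes, a trended robust variance, array weights, the passage block, the compared groups alone and each array or passage left out. A fit without the 3 arrays that stood apart and a fit with the first component score as covariate were added after seeing the data.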

Additional observations from a re-analysis of the deposited data

Results flagged for a closer look

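The difference of the single cytokines from vehicle had opposite signs in 2 passages. With TNFα the median of the 52 members was 0.59 above vehicle in passage 15 (11 of 52 members were lower, against 55% of all probes) and −1.65 in passage 28. With IL1β it was 1.07 in passage 15 and −1.66 in passage 28. Each passage has 1 array per treatment, so the difference between passages was not tested. The passage 15 vehicle array is 1 of the 3 arrays that stood apart on the first principal component, as are the passage 15 TNFα array and the passage 28 IL1β array, and the passage 28 vehicle array was the highest of the 12 for 30 of 51 members. The part of those arrays in the opposite signs was not tested.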

How the results depend on the processing

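No member was called under any alternative in any comparison, except TPX2 with both cytokines against vehicle when the first component score was a covariate (a count of 1 in place of 0; the lowest adjusted p ranged from 0.0399 to 0.848 over the settings that kept all arrays or left out the 3 apart). With both cytokines the median of the members stayed below 0: from −1.52 to −0.74 over those settings and from −1.63 to −0.51 with an array or passage left out. With the passage as a block it was −1.02, with 0 members called and 17 at an unadjusted p under 0.05 (12.2% of all probes). The lowest adjusted p of a member was then 0.15, and the block changed no call in the other comparisons. Leaving out arrays moved the TNFα median between −0.89 and 0.19 and the IL1β median between −1.15 and 0.28, and with array weights the IL1β median was 0.21. Against TNFα the median of both ran from −0.94 to −0.57 and against IL1β from −0.997 to −0.25. Signs were followed through the settings for 20 genes with both cytokines against vehicle, 5 with TNFα and 4 with IL1β, not for every gene named. Among those followed, other signs were found for CDKN1A under quantile normalization (0.0473), for MCM2 (0.0223) and CDC20 with IL1β (0.63) with array weights, and for E2F1 without the 3 arrays that stood apart (0.0572). With an array or passage left out, E2F1 ran from −0.72 to 0.13 with both cytokines, and CDC20 from −1.71 to 0.18 with TNFα and from −1.81 to 0.64 with IL1β. Quantile normalization moved the median of all probes with both cytokines against vehicle from −0.13 to 0.00 (−0.0015) and that of the members to −0.97. With 3 arrays per group and no detection calls, dim members such as BUB1B, CDT1 and CDC45 have the least certain values.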
